A study of Homo sapiens with 9 samples.

Results

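Markers of epithelial and ovarian tumour cells were followed in SKOV3, an established human ovarian tumour cell line, after exposure to a pair of acetylated amino sugars. The 10 genes were MUC1, MUC16, KRT7, KRT8, KRT19, CDH1, EPCAM, MSLN, WFDC2 and PAX8, taken by symbol. A gene entered when a probe set was annotated to it and to no other gene, which held for 9 of the 10, each with 1 such probe set among 14413 probe sets of that kind and 17859 in all. MUC16, which encodes the CA125 antigen, was not analysed here. KRT7 also stood on 1 further probe set and KRT8 on 3 further probe sets that name several genes, and these were not used.

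The study compared 3 groups of 3 arrays. Each array held total RNA of a separate flask, kept for 3 days in McCoys5A medium with 10% FBS. The groups were untreated cells, cells given the fully acetylated N-acetylglucosamine Ac-GlcNAc at 50 µM, and cells given its deoxy analog Ac-4-deoxy-GlcNAc, also at 50 µM. The deoxy analog lacks the oxygen at carbon 4 of the sugar, so the labels give it 3 acetyl groups on oxygen against 4. The labels name no solvent for the untreated flasks. All flasks were of 1 cell line, and the p-values below judge differences between groups against the spread between flasks of that line.

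Simple epithelia hold keratin 8 and keratin 18 filaments, often with keratins 7 and 19, and are joined by E-cadherin, the product of CDH1. MUC1 and MUC16 are heavily glycosylated mucins of the apical surface, EPCAM is an epithelial adhesion protein, and mesothelin (MSLN) is a surface protein that binds MUC16. WFDC2 encodes the secreted protein HE4, used with CA125 as a serum marker of ovarian cancer. PAX8 is a transcription factor of the Müllerian lineage and a pathologist's marker of ovarian carcinoma. Loss of CDH1 under repressors such as SNAI1, SNAI2 and ZEB1 is a known feature of epithelial to mesenchymal transition, in which VIM and CDH2 are high.

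Values are log2 expression values per probe set. Medians of the 9 arrays lay between 6.58 and 6.65. Brightness also depends on the probes, so a value shows no amount relative to another gene, and a detection limit was not given. The SD of the values on an array was 2.08, 1.92 and 2.08 in the untreated replicates, 2.14 to 2.18 with Ac-GlcNAc and 2.07 to 2.17 with Ac-4-deoxy-GlcNAc, so untreated replicate 2 was the most compressed array. The part of this spread in the differences below was not tested.

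In untreated cells KRT8, KRT7, PAX8 and KRT19 had mean values of 11.19, 10.72, 10.63 and 9.86. MUC1, EPCAM, CDH1 and MSLN lay at 8.47, 8.23, 7.49 and 7.21, and WFDC2 read 5.81. All but WFDC2 were above the median of every untreated array. The receptor gene ERBB2, known to be amplified in this line, was at 12.22 ± 0.05 (SD, n = 3). The mesenchymal genes used to check the labelled cell type were read as well: VIM was at 11.54 ± 0.18, CDH2 at 10.00 ± 0.12, FN1 at 11.84 ± 0.07 and ZEB1 at 9.96 ± 0.22. The simple keratin partner KRT18 was at 8.76 ± 0.26, and the claudins CLDN3, CLDN4 and CLDN7 were at 9.00, 7.79 and 7.41. Over the whole lists the picture was mixed. Of the genes for epithelial junctions and identity, 17 of 35 had an untreated mean above the median of every untreated array and 18 were below every such median, among them ESRP1 (4.68), GRHL2 (4.29) and RAB25 (4.28). Of the other keratins 3 of 8 were above and 5 below. Of the mesenchymal genes 9 of 15 were above and 6 below: ZEB2 (5.34), SNAI1 (5.70), PRRX1 (5.27), LEF1 (4.66), THY1 (4.71) and CDH11 (4.71). ESRP1, GRHL2, RAB25 and the last 3 of these were named after their values were seen.

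After the deoxy analog, MUC1, KRT19 and KRT7 were lower than in untreated cells and CDH1 was higher, while KRT8, EPCAM, MSLN, WFDC2 and PAX8 did not pass the test. After Ac-GlcNAc, MUC1 was 1.46-fold lower, and the other 8 measured genes did not pass. Directly compared at the same dose and time, the compounds differed in CDH1, which was 1.47-fold higher with Ac-4-deoxy-GlcNAc. A gene was called at an adjusted p under 0.05 in a limma fit of all 9 arrays, adjusted by Benjamini-Hochberg over all 17859 probe sets. Of all probe sets, 11.0% were called for Ac-4-deoxy-GlcNAc against untreated, 0.442% for Ac-GlcNAc against untreated and 2.38% between the compounds. The 4 of 9 genes called with Ac-4-deoxy-GlcNAc (3 lower, 1 higher) are to be read against shares of 5.64% lower and 5.38% higher over all probe sets. The moderated F test over the 3 groups called 4 of the 9, MUC1, CDH1, KRT19 and KRT7, against 8.36% of all probe sets.

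**Figure D1:**
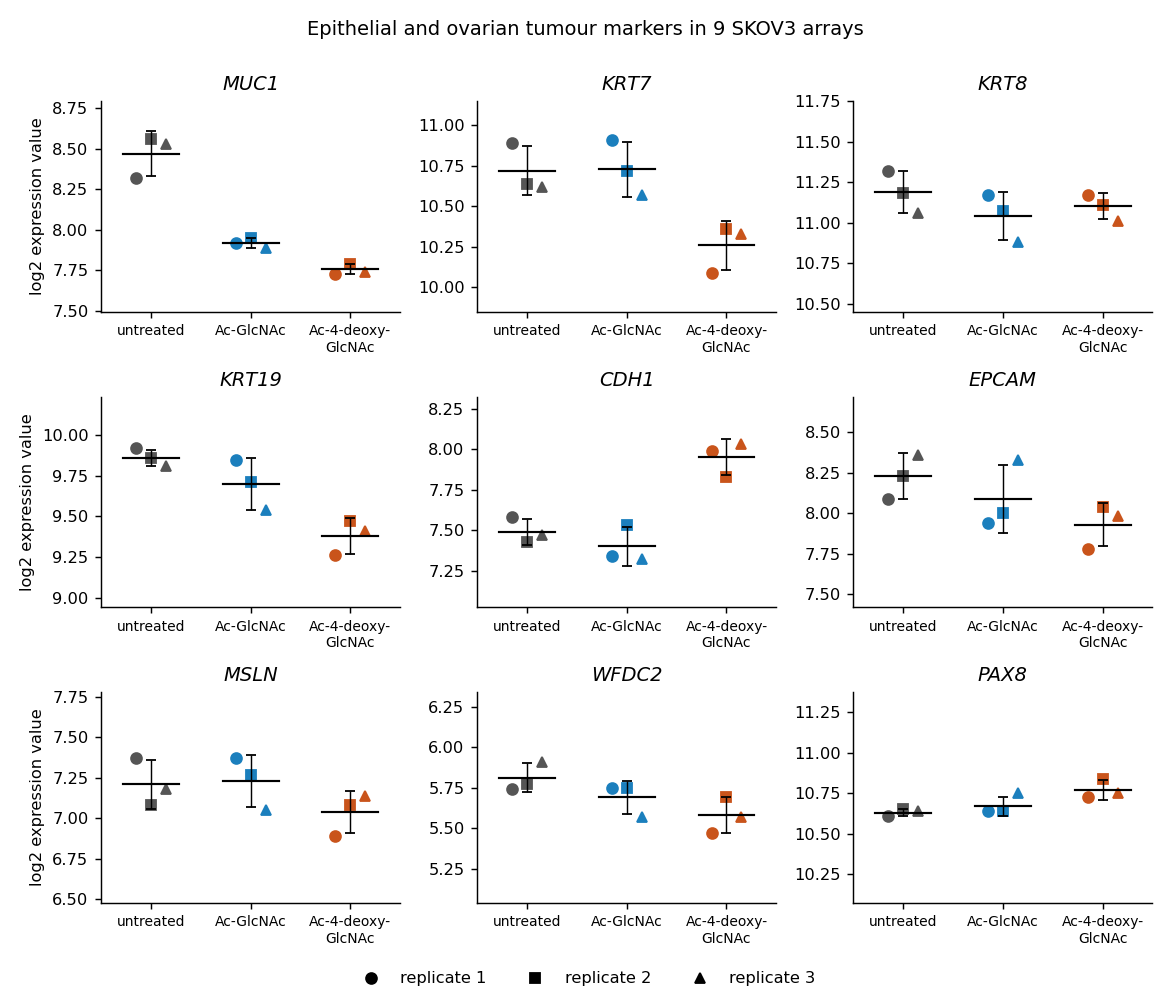
Log2 expression value of each measured marker (vertical axes, each spanning the same range of log2 units) on the 9 arrays by group (horizontal axes); symbols give the replicate, horizontal bars the mean and error bars the SD of 3 arrays. MUC1 lay lower in both treated groups, at 7.92 and 7.76 against 8.47, and with Ac-4-deoxy-GlcNAc CDH1 was higher, at 7.95 against 7.49, and KRT7 and KRT19 were lower.

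MUC1 had the largest difference from untreated cells of the 9 genes, with either compound. This transmembrane mucin read 8.32, 8.56 and 8.53 in the untreated replicates 1 to 3, 7.92, 7.95 and 7.89 with Ac-GlcNAc and 7.73, 7.79 and 7.74 with Ac-4-deoxy-GlcNAc. The 3 groups did not overlap, and each treated group lay below every untreated array. The log2 difference from untreated was -0.72 with Ac-4-deoxy-GlcNAc (SE 0.09, 95% interval -0.92 to -0.51, adjusted p = 0.00101), a 1.64-fold fall. It was -0.55 with Ac-GlcNAc (SE 0.09, -0.75 to -0.35, adjusted p = 0.0299). Both contrasts use the same untreated arrays and are not independent of each other. Between the compounds MUC1 differed by -0.17 (95% interval -0.37 to 0.04, adjusted p = 0.511), which did not pass, so the data do not separate the 2 responses and allow a difference as large as -0.37. The fall with Ac-4-deoxy-GlcNAc was called in all 6 fits that left out 1 of the compared arrays (log2 -0.79 to -0.67). The fall with Ac-GlcNAc was called in 2 of the 6. It had an adjusted p of 0.0701 without untreated replicate 2, and of 0.0989, 0.134 and 0.129 without Ac-GlcNAc replicate 1, 2 and 3, at log2 -0.57 to -0.50. On the 6 compared arrays alone it was 0.0553.

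The MUC1 promoter is shown because MUC1 was the marker called in both treated groups. RefSeq promoter windows (GRCh38.p14) matched 5 of the 10 genes: MUC1, MUC16, KRT8, PAX8 and WFDC2. MUC1 has 2 listed starts, and only the first listed is used here. The 250 bases before it lie at chr1:155192916-155193165 on the minus strand. They are given 5′ to 3′ on the strand of the gene, and capitals mark matches to the motifs described next.
MUC1: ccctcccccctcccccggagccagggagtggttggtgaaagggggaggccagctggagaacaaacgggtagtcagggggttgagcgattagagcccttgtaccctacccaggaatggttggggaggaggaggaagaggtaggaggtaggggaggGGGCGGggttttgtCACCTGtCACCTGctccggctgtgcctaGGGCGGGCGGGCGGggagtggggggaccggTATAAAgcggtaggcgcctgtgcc
These motifs were the E-box CACCTG, whose core is bound by SNAI1, SNAI2 and ZEB1, the GC box GGGCGG of Sp1-type factors and the TATA box TATAAA, each searched on both strands. The window held 2 CACCTG matches, 82 and 75 bases before the start, on the strand of the gene. It held 4 GGGCGG matches, 1 of them 96 bases before the start and the other 3 overlapping in the run that begins 54 bases before it, and TATAAA 24 bases before it. Of 27305 RefSeq windows of the same length, 1 per gene, 17.5% held CACCTG, 42.3% GGGCGG and 11.1% TATAAA. The matches describe the letters only.

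Of the 3 keratins, KRT19 and KRT7 passed the test with Ac-4-deoxy-GlcNAc and KRT8 did not. KRT19, the short type I keratin of simple epithelia, read 9.92, 9.86 and 9.81 untreated, 9.85, 9.71 and 9.54 with Ac-GlcNAc and 9.26, 9.47 and 9.41 with Ac-4-deoxy-GlcNAc. All Ac-4-deoxy-GlcNAc arrays lay below all others, and the Ac-GlcNAc arrays overlapped the untreated ones. KRT19 fell by 0.49 on the log2 scale with Ac-4-deoxy-GlcNAc (SE 0.10, 1.40-fold, adjusted p = 0.0122). Without deoxy analog replicate 1 the adjusted p was 0.0503. With Ac-GlcNAc the difference was -0.16 (95% interval -0.39 to 0.06, adjusted p = 0.314). Between the compounds it was -0.32 (-0.55 to -0.10, adjusted p = 0.138), which did not pass although the arrays did not overlap, as on 21.2% of all probe sets.

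KRT7, a type II keratin of glandular and ductal epithelia, read 10.89, 10.64 and 10.62 untreated, 10.91, 10.72 and 10.57 with Ac-GlcNAc and 10.09, 10.36 and 10.33 with Ac-4-deoxy-GlcNAc. The untreated and Ac-GlcNAc arrays covered the same range, and the Ac-4-deoxy-GlcNAc arrays lay below both. KRT7 fell by 0.46 against untreated (SE 0.12, 1.37-fold, adjusted p = 0.0287). It was not called without untreated replicate 1 (adjusted p = 0.0589), deoxy analog replicate 1 (0.091) or deoxy analog replicate 3 (0.0741), nor on the 6 compared arrays alone (0.0556). Against Ac-GlcNAc the difference was -0.47 (95% interval -0.73 to -0.21, adjusted p = 0.0574). That contrast missed the threshold in the main fit and passed it under 4 other settings, at adjusted p of 0.00709 to 0.0428. These were the 25th percentile filter, trend and robust options, array weights and the 6 compared arrays alone. KRT7 was also called there without untreated replicate 1 or 2, but in 0 of the 6 fits without 1 of the compared arrays. The mean with Ac-GlcNAc was 10.73 against 10.72 untreated, a difference of 0.014 (-0.24 to 0.27), whose sign turned with cyclic loess (-0.10), quantile normalization (-0.096) and median centring (-0.011).

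KRT8, the type II keratin of all simple epithelia, read 11.32, 11.18 and 11.06 untreated, 11.17, 11.07 and 10.88 with Ac-GlcNAc and 11.17, 11.11 and 11.01 with Ac-4-deoxy-GlcNAc. The 3 groups overlapped. Its log2 difference from untreated was -0.15 with Ac-GlcNAc (95% interval -0.38 to 0.08, adjusted p = 0.367) and -0.091 with Ac-4-deoxy-GlcNAc (-0.32 to 0.14, adjusted p = 0.575). KRT18, its filament partner, differed by 0.054 with Ac-4-deoxy-GlcNAc (-0.23 to 0.34) and by -0.045 with Ac-GlcNAc (-0.33 to 0.24). KRT18 was chosen for mention after its values were seen. The intervals leave out, for KRT8, a fall with Ac-4-deoxy-GlcNAc of the size estimated for KRT19 or KRT7. A test of KRT8 against either gene was not made.

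CDH1 moved the other way. E-cadherin transcript read 7.58, 7.43 and 7.47 untreated, 7.34, 7.53 and 7.32 with Ac-GlcNAc and 7.99, 7.83 and 8.03 with Ac-4-deoxy-GlcNAc. Every Ac-4-deoxy-GlcNAc array was above every other array, and the other 2 groups overlapped. CDH1 was 1.37-fold higher than in untreated cells (log2 0.45, SE 0.10, 95% interval 0.24 to 0.67, adjusted p = 0.0139) and 1.47-fold higher than with Ac-GlcNAc (log2 0.55, SE 0.10, 0.34 to 0.77, adjusted p = 0.0112). The former was not called without deoxy analog replicate 3 (adjusted p = 0.0681). The latter was not called without Ac-GlcNAc replicate 1 or 3 (0.0651 and 0.0628) or without deoxy analog replicate 1 or 3 (0.0557 and 0.0532). With Ac-GlcNAc the difference from untreated was -0.099 (-0.31 to 0.12, adjusted p = 0.532). In bulk RNA, a change in the share of cells with a transcript and a change in its amount per cell cannot be told apart.

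**Figure D2:**
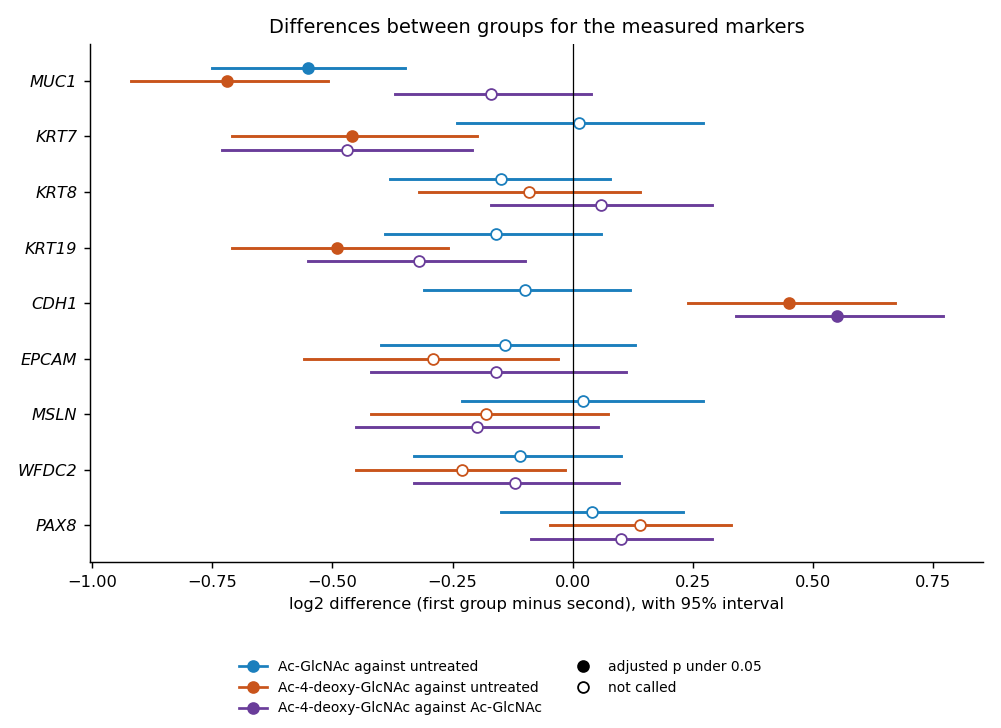
Log2 difference (horizontal axis) of each measured marker in the 3 comparisons, with 95% intervals from the limma fit; filled points have an adjusted p under 0.05. Filled points are those of MUC1 with either compound, KRT7, KRT19 and CDH1 with Ac-4-deoxy-GlcNAc, and CDH1 between the compounds.

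The surface proteins EPCAM and MSLN did not pass in any comparison. EPCAM read 8.09, 8.23 and 8.36 untreated, 7.94, 8.00 and 8.33 with Ac-GlcNAc and 7.78, 8.04 and 7.98 with Ac-4-deoxy-GlcNAc. Its Ac-4-deoxy-GlcNAc arrays lay below the untreated ones without overlap, and the log2 difference was -0.29 (95% interval -0.56 to -0.03, adjusted p = 0.125). With Ac-GlcNAc it was -0.14 (-0.40 to 0.13), and between the compounds -0.16 (-0.42 to 0.11). MSLN read 7.37, 7.08 and 7.18 untreated, 7.37, 7.27 and 7.05 with Ac-GlcNAc and 6.89, 7.08 and 7.14 with Ac-4-deoxy-GlcNAc. These groups overlapped, with a log2 difference of -0.18 for Ac-4-deoxy-GlcNAc (-0.42 to 0.07, adjusted p = 0.306) and 0.021 for Ac-GlcNAc (-0.23 to 0.27, adjusted p = 0.919). The latter turned to -0.041 with cyclic loess, -0.055 with quantile normalization and -0.004 with median centring.

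WFDC2 read 5.74, 5.77 and 5.91 untreated, 5.75, 5.75 and 5.57 with Ac-GlcNAc and 5.47, 5.69 and 5.57 with Ac-4-deoxy-GlcNAc. The last group lay below the untreated arrays without overlap, by -0.23 (95% interval -0.45 to -0.02, adjusted p = 0.134). With Ac-GlcNAc the difference was -0.11 (-0.33 to 0.10, adjusted p = 0.466). PAX8 varied least in untreated cells, reading 10.61, 10.65 and 10.64, with 10.64, 10.64 and 10.75 with Ac-GlcNAc and 10.73, 10.84 and 10.75 with Ac-4-deoxy-GlcNAc. Its difference from untreated was 0.14 with the analog (-0.05 to 0.33, adjusted p = 0.281) and 0.039 with Ac-GlcNAc (-0.15 to 0.23, adjusted p = 0.793). The PAX8 interval leaves out a rise or fall with either compound as large as the fall of MUC1 with Ac-GlcNAc.

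Across the 9 measured genes the median log2 difference was -0.23 with Ac-4-deoxy-GlcNAc, -0.11 with Ac-GlcNAc and -0.16 between the compounds, where the medians over all probe sets were -0.05, -0.02 and 0.00. Differences were negative for 7 of 9, 6 of 9 and 6 of 9. Groups were separated, with no array of one within the range of the other, for 7 of the 9 with Ac-4-deoxy-GlcNAc, 1 of 9 with Ac-GlcNAc and 4 of 9 between the compounds. Over all probe sets that held for 32.1%, 32.3% and 21.2%. The mean log2 value over the 9 genes lay at 8.82 to 8.87 on untreated arrays, 8.66 to 8.77 with Ac-GlcNAc and 8.57 to 8.69 with Ac-4-deoxy-GlcNAc.

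Leaving out arrays moved the counts. The 4 genes called with Ac-4-deoxy-GlcNAc became 2 without deoxy analog replicate 1 or 3, and 3 without untreated replicate 1. Calls over all 17859 probe sets went from 1968 to 890 and 604 without deoxy analog replicates 1 and 3. Without untreated replicate 1 they were 3076. Between the compounds the 1 called gene became 0 without Ac-GlcNAc replicate 1 or 3 or deoxy analog replicate 1 or 3. It became 2 (CDH1 and KRT7) without untreated replicate 1 or 2. Calls over all probe sets there went from 425 to 148 and 159 without Ac-GlcNAc replicates 1 and 3. They were 141 and 199 without deoxy analog replicates 1 and 3, and 415 and 659 without untreated replicates 1 and 2. The F test called 2 of the markers without Ac-GlcNAc replicate 2 or deoxy analog replicate 1, and 1 without deoxy analog replicate 3. Its calls over all probe sets were not counted for these fits. Without untreated replicate 2, the most compressed array, MUC1, KRT7, KRT19 and CDH1 stayed called with Ac-4-deoxy-GlcNAc, at log2 differences of -0.67, -0.49, -0.49 and 0.42.

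**Figure D3:**
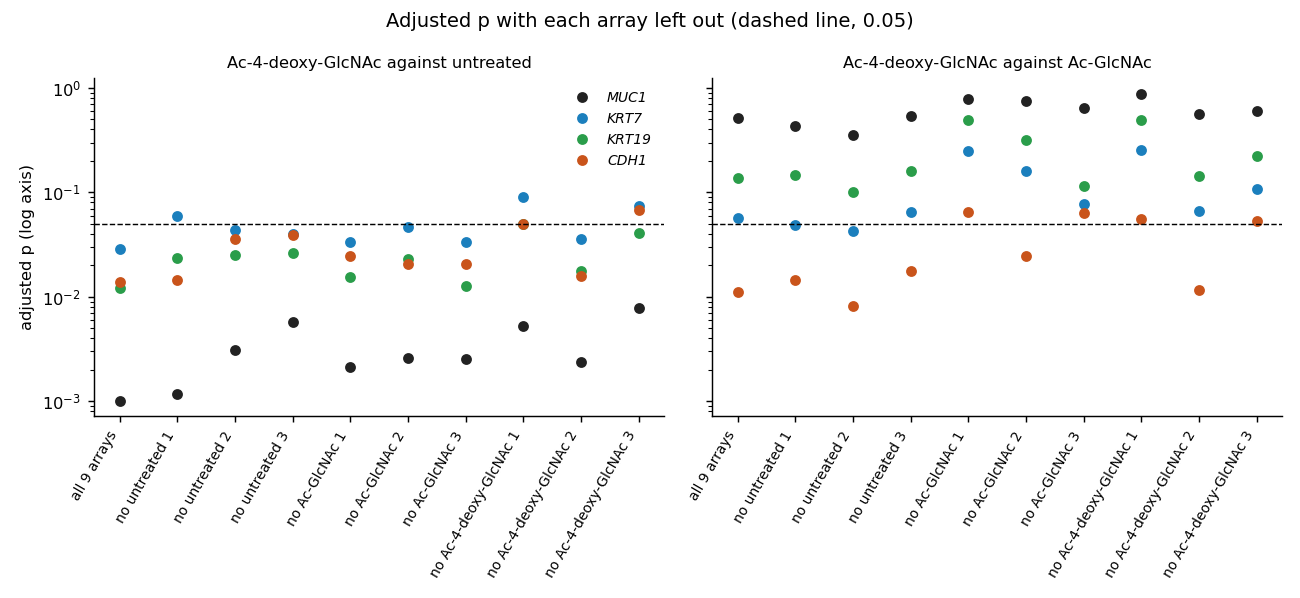
Adjusted p (vertical axis, log scale) of MUC1, KRT7, KRT19 and CDH1 with all 9 arrays and with each array left out, for Ac-4-deoxy-GlcNAc against untreated (left) and against Ac-GlcNAc (right); the dashed line is 0.05. On the left MUC1 stayed below the line throughout, at most at 0.00775, while KRT7, KRT19 and CDH1 each crossed it in at least 1 fit.

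Other epithelial genes mostly did not pass. Of 8 measured keratins beyond the markers, Ac-4-deoxy-GlcNAc gave 1 lower and 0 higher, a share of 12.5% near the 11.0% of all probe sets. It was KRT14, a basal cell keratin, at 5.70 ± 0.20 against 6.66 ± 0.69 (log2 -0.96, adjusted p = 0.0265). Untreated replicate 2 read 7.44 there against 6.18 and 6.35, and without it the difference was -0.56 (adjusted p = 0.0231). KRT14 has a further probe set that names more genes, and the call was lost without deoxy analog replicate 3, with trend and robust options and on the 6 compared arrays. With Ac-GlcNAc it differed by -0.71 (adjusted p = 0.113), where limma called 0 of the 8 and 2 had an unadjusted p under 0.05.

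Of 35 measured genes for epithelial junctions and epithelial identity, Ac-4-deoxy-GlcNAc gave 2 lower and 0 higher, a share of 5.71% where 11.0% of all probe sets were called and 5.64% called lower. That count was 0 without untreated replicate 3 or deoxy analog replicate 3. They were CGN, the tight junction protein cingulin (log2 -0.41, SE 0.10, adjusted p = 0.0219), and ELF3, an epithelial transcription factor (-0.38, SE 0.10, adjusted p = 0.033). CGN was called in 4 of the 6 fits with 1 compared array left out and ELF3 in 1. The CGN call was also lost with cyclic loess, with quantile normalization and on the 6 compared arrays, and the ELF3 call on the 6 compared arrays. The catenins CTNNB1 and CTNNA1, which bind E-cadherin and were looked up after CDH1 was seen to rise, differed by -0.0081 and -0.13 (adjusted p = 0.962 and 0.358). With Ac-GlcNAc limma called 0 of the 35, though 6 had an unadjusted p under 0.05, and ELF3 had the smallest p (log2 -0.38, adjusted p = 0.0882). Between the compounds 1 was called, a share of 2.86% near the 2.38% of all probe sets. It was CLDN4, a tight junction claudin, which read 7.14, 7.79 and 7.50 with Ac-4-deoxy-GlcNAc against 8.23, 8.11 and 8.34 (log2 -0.74, SE 0.15, adjusted p = 0.0185). CLDN4 thus lay on the opposite side from CDH1 in that comparison. Its call held in 2 of 6 such fits.

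Of 4 other measured mucins, limma called 0 in any comparison, and 2 had an unadjusted p under 0.05 against untreated with either compound. MUC13, a transmembrane mucin, had the smallest p with Ac-GlcNAc (log2 -0.40, adjusted p = 0.0927), and MUC17 with Ac-4-deoxy-GlcNAc (-0.25, adjusted p = 0.152). Between the compounds MUC13 differed by 0.14 (adjusted p = 0.728). All 4 were negative against untreated with either compound, at a mean log2 level of 4.38 to 4.61 on untreated arrays. Of 10 measured shedding and binding partners of the markers, such as furin and ezrin, limma called 0 in any comparison, with 0, 2 and 1 at an unadjusted p under 0.05 for Ac-GlcNAc, Ac-4-deoxy-GlcNAc and between the compounds. The smallest p was that of PSEN2, a subunit of the protease that cuts EPCAM, against untreated (log2 -0.19 with Ac-GlcNAc and -0.28 with Ac-4-deoxy-GlcNAc, adjusted p = 0.231 and 0.0774). Between the compounds it was that of LGALS1, a galectin (-0.30, adjusted p = 0.219).

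Of 26 other measured ovarian tumour and Müllerian genes, Ac-4-deoxy-GlcNAc gave 2 higher and 1 lower, and Ac-GlcNAc gave 1 higher. The former is a share of 11.5%, close to the 11.0% of all probe sets called, and the latter stands against 0.207% called higher. CD24, a mucin-like adhesion protein, rose with both, to 11.10 ± 0.07 with Ac-GlcNAc and 10.91 ± 0.12 with Ac-4-deoxy-GlcNAc from 10.48 ± 0.24 (log2 0.62 and 0.43, adjusted p = 0.0468 and 0.0354), though each call held in 1 of 6 fits with 1 compared array left out. Its call with Ac-GlcNAc was also lost with cyclic loess, quantile normalization and median centring, and both calls on the 6 compared arrays. SLC34A2, a phosphate transporter, rose by 0.47 with Ac-4-deoxy-GlcNAc against untreated (adjusted p = 0.0307, called in 2 of 6 fits) and by 0.73 against Ac-GlcNAc (adjusted p = 0.009, called in 5 of 6). TFPI2, a protease inhibitor, fell by 0.33 and 0.47 in those comparisons (adjusted p = 0.044 and 0.0238, called in 2 and 1 of 6). On the 6 compared arrays neither SLC34A2 nor TFPI2 was called against untreated. ERBB2 differed by 0.0013 with Ac-4-deoxy-GlcNAc and 0.07 with Ac-GlcNAc.

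Mesenchymal genes were read beside the CDH1 rise, and a link between them was not tested. Of 15 measured, 3 were lower with Ac-4-deoxy-GlcNAc than in untreated cells and 0 higher: SPARC, a matrix glycoprotein (log2 -0.80, SE 0.09, adjusted p = 0.000488), PRRX1, a mesenchymal transcription factor (-0.62, adjusted p = 0.00344), and MMP2, a gelatinase (-0.41, adjusted p = 0.0234, called in 3 of 6 fits with 1 compared array left out and not on the 6 compared arrays). Over all probe sets 5.64% were lower and 5.38% higher. Against Ac-GlcNAc 4 were lower and 0 higher, SNAI1, SPARC, MMP2 and SNAI2, with background shares of 1.48% lower and 0.896% higher. That count was 3 without deoxy analog replicate 3 and 1 without any other of the compared arrays. With Ac-GlcNAc against untreated limma called 0, with 7 at an unadjusted p under 0.05, and SPARC had the smallest p (-0.27, adjusted p = 0.113).

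The repressor SNAI1 read 5.28, 5.22 and 5.44 with Ac-4-deoxy-GlcNAc, 6.28, 5.88 and 5.77 with Ac-GlcNAc and 5.84, 5.53 and 5.73 untreated. It was lower than with Ac-GlcNAc (log2 -0.66, SE 0.13, adjusted p = 0.0211, called in 2 of 6 fits), and against untreated the difference was -0.39 (adjusted p = 0.0761). SNAI2 read 11.30, 11.36 and 11.49, 11.92, 11.79 and 11.71, and 11.64, 11.55 and 11.58 in the same order of groups. Its log2 difference between the compounds was -0.42 (adjusted p = 0.0347), and it was not called in any of those 6 fits. ZEB1, VIM and CDH2 had log2 differences of 0.17, 0.18 and 0.15 with Ac-4-deoxy-GlcNAc against untreated (adjusted p = 0.292, 0.239 and 0.341). SNAI2 beside the rule, and these 3 genes, were chosen for their known roles after values were seen. The part of any of them in the CDH1 difference was not tested.

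**Figure D4:**
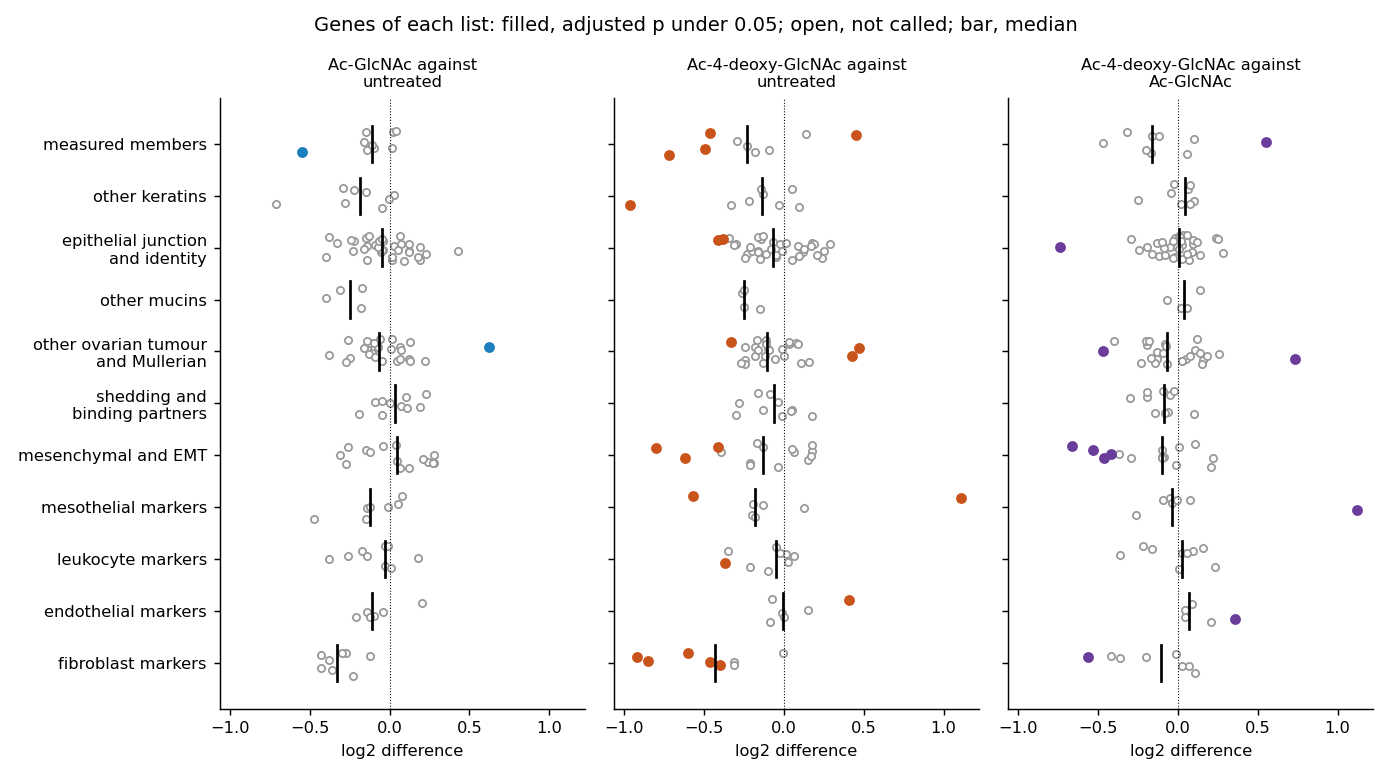
Log2 difference (horizontal axis) of every measured gene of each list in the 3 comparisons (panels); filled points have an adjusted p under 0.05, open points were not called and black bars are medians, with vertical scatter for legibility only. Filled points are most numerous with Ac-4-deoxy-GlcNAc, where 11.0% of all probe sets were called. They include 4 of 9 markers (44.4%), 5 of 8 fibroblast markers (62.5%) and 3 of 15 mesenchymal genes (20.0%). Other ovarian tumour and Müllerian genes gave 3 of 26 (11.5%), close to the share of all probe sets.

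Markers of other cell types were set beside these results. Of 8 measured fibroblast markers, 5 were lower with Ac-4-deoxy-GlcNAc: COL1A1 and COL1A2, the chains of collagen I (log2 -0.92 and -0.85), POSTN (-0.60), LUM (-0.46) and FAP (-0.40), where 5.64% of all probe sets were lower. LUM and FAP are named to complete the count, which was 3 without deoxy analog replicate 1 or 2. Their mean level was 5.96 to 6.14 on untreated arrays, 5.65 to 5.76 with Ac-GlcNAc and 5.53 to 5.57 with Ac-4-deoxy-GlcNAc. COL1A2 has a further probe set that names more genes. With Ac-GlcNAc limma called 0, with 5 at an unadjusted p under 0.05, and COL1A2 had the smallest p (-0.43, adjusted p = 0.0761). Between the compounds COL1A1 was lower (-0.56, adjusted p = 0.00781, called in 5 of 6 fits, not without Ac-GlcNAc replicate 1).

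Of 7 measured mesothelial markers, LRRN4, a membrane protein, was higher with Ac-4-deoxy-GlcNAc than in untreated cells and than with Ac-GlcNAc (log2 1.11 and 1.12, called in 6 of 6 fits each). UPK1B was lower against untreated (-0.57, adjusted p = 0.0313, called in 3 of 6 and not with array weights), and differed by -0.47 with Ac-GlcNAc (adjusted p = 0.102). MSLN, itself a mesothelial marker, did not pass. The mean level of the 7 was 5.57 to 5.85 untreated, 5.51 to 5.67 with Ac-GlcNAc and 5.68 to 5.70 with Ac-4-deoxy-GlcNAc. The 9 measured leukocyte markers had means of 5.01 to 5.33, 4.98 to 5.12 and 4.96 to 5.06 in the same order, with CD68, a lysosomal protein also found outside leukocytes, lower with Ac-4-deoxy-GlcNAc (-0.37, adjusted p = 0.0455, called in 0 of 6, nor with the replicate block, with array weights or on the 6 compared arrays). The pan-leukocyte PTPRC was at 4.43 untreated and differed by -0.38 with Ac-GlcNAc (adjusted p = 0.0981). The 6 endothelial markers had means of 5.06 to 5.21, 5.01 to 5.12 and 5.14 to 5.25. PECAM1 was higher with Ac-4-deoxy-GlcNAc than in untreated cells (0.41, adjusted p = 0.0178, called in 4 of 6 and not on the 6 compared arrays) and KDR against Ac-GlcNAc (0.36, adjusted p = 0.0497, called in 0 of 6, nor with the replicate block or median centring), while KDR differed by -0.21 with Ac-GlcNAc (adjusted p = 0.161). Against untreated these are 2 of 7, 1 of 9 and 1 of 6 called for the mesothelial, leukocyte and endothelial lists with Ac-4-deoxy-GlcNAc (28.6%, 11.1% and 16.7%), beside 11.0% of all probe sets. The part of these lists in the changes of the epithelial markers was not tested.

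The genes whose 9 values ran closest to each called marker were found by the root mean square difference of values centred on each gene's own mean, over 9 arrays and 14214 other genes. For MUC1 these were RASGRP3, BGN and TLL1 (0.064, 0.089 and 0.089 log2 units), and for KRT7 UROS, JUNB and TMEM143 (0.058, 0.063 and 0.066). For KRT19 they were ADGRG2, VDR and SLC39A4 (0.043, 0.044 and 0.048). VDR is the vitamin D receptor, at 5.84 ± 0.11 with Ac-4-deoxy-GlcNAc against 6.29 ± 0.08 untreated. For CDH1 they were ADAMTS14, KCNQ3 and ERBB3 (0.054, 0.064 and 0.070), and ERBB3, an ERBB2 partner receptor, was at 5.32 ± 0.04 with Ac-4-deoxy-GlcNAc, 4.79 ± 0.12 with Ac-GlcNAc and 4.90 ± 0.08 untreated. The points share the same 9 RNA samples, and the ranking carries no test.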

How the data were processed

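Biotin-labelled material from total RNA of 9 SKOV3 flasks was measured on arrays. The authors deposited 1 log2 value per probe set and array, which the submitters' processing notes trace to RMA in Partek and to hg18. Versions, settings and filters are not given in the sources used here, and no scanner files were used here. Groups and replicate numbers came from the sample titles. Of 17859 probe sets, 14413 named 1 gene, 2405 several and 1041 none in the platform annotation, and 14385 of the 14413 were found by gene identifier in RefSeq (GRCh38.p14), whose symbols were used.

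No further normalization was applied. A model with a term for group alone was fitted to the 9 arrays together (limma 3.58.1, R 4.3.3, lmFit and eBayes), which left 6 residual degrees of freedom. P-values were two-sided, adjusted by Benjamini-Hochberg across the 17859 probe sets and called under 0.05. With so few arrays the median SE of a difference was 0.11, and their number limits the precision. The fit was tested on simulated arrays before use. The 10 markers, 10 other lists (171 entries) and tests were chosen with earlier results of these data known. From each list and comparison, up to 3 called genes by size were named, or, with no call, the gene with the smallest p, and for each called marker the 3 genes nearest in pattern.

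Alternatives were the replicate block, cyclic loess, quantile normalization, median centring, a filter at the 25th percentile of mean level, limma's trend and robust options, weights per array, a fit of only the 6 arrays compared, and each array left out. List counts and list genes under these settings were added after the data were seen. No marker had another probe set of its own to try.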

Additional observations from a re-analysis of the deposited data

How the results depend on the processing

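MUC1 with Ac-4-deoxy-GlcNAc kept its direction and its call under every setting run (log2 -0.79 to -0.67). The 4 markers called there stayed 4 under every setting that kept all arrays in the fit, and were 3 on the 6 compared arrays and 2 to 4 with 1 array left out. The F test called 1 to 4, and its calls over all probe sets were counted only for the main fit. With Ac-GlcNAc, MUC1 was not called on the 6 compared arrays, so 0 markers were, and 0 to 1 with 1 array left out. Between the compounds 2 markers were called with the 25th percentile filter, 2 with trend and robust options, 3 with array weights, 2 on the 6 compared arrays, and 0 to 2 with 1 array left out. In the first 4 of these fits, in that order, calls over all probe sets tested were 616, 525, 1187 and 589. The main fit gave 425.

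Counts of probe sets moved more. With Ac-GlcNAc the 79 became 324 with the replicate block, 47 with cyclic loess, 36 with quantile normalization, 32 with median centring, 141 with trend and robust options, 1760 with array weights, 48 on the 6 compared arrays and 4 to 1359 with 1 array left out. Of its calls 46.8% were higher, against 59.4% with median centring, 60.8% with the filter, 29.6% with the replicate block, and 21.8% (without untreated replicate 3) to 4 of 4 calls (without Ac-GlcNAc replicate 3) with 1 array left out. With Ac-4-deoxy-GlcNAc the 1968 became 818 on the 6 compared arrays and 604 to 3076 with 1 array left out. Between the compounds the 425 became 1187 with array weights and 141 to 659 with 1 array left out. The cause of these shifts was not tested.

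Whether replicate numbers mark pairs was not settled. Deviations of same-numbered arrays from their group means correlated at 0.142, 0.05 and 0.369 for untreated and Ac-GlcNAc. For untreated and Ac-4-deoxy-GlcNAc they gave -0.245, 0.048 and 0.14, and between the compounds -0.063, -0.082 and -0.11. Differently numbered arrays ran from -0.402 to 0.406. Deviations within a group of 3 arrays are tied to each other, so these values cannot decide on pairing. The block gave 1 called marker with Ac-GlcNAc, 4 with Ac-4-deoxy-GlcNAc and 1 between the compounds, as without it. Probe sets called with Ac-GlcNAc went from 79 to 324 with it.

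Signs turned only for differences that did not pass. With Ac-GlcNAc against untreated, KRT7 took -0.10, -0.096 and -0.011 with cyclic loess, quantile normalization and median centring (-0.073 to 0.10 with 1 compared array left out), MSLN -0.041, -0.055 and -0.004 (-0.049 to 0.11), and PAX8 -0.077 and -0.075 under the first 2 of these. KRT8 between the compounds ranged from -0.022 to 0.13 with 1 array left out. No signal over background was available, so how far WFDC2 and the dim lists lie above background cannot be told.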
